A study of Homo sapiens with 6 samples.

Results

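The genes described here are the cyclins, kinases and Kip inhibitors that govern G1, the phase between cell division and DNA synthesis. They are CCND1, CCND2 and CCND3 (cyclins D1 to D3), CCNE1 and CCNE2 (the E cyclins), the kinase genes CDK2, CDK4 and CDK6, and the inhibitor genes CDKN1B (p27) and CDKN1C (p57). The 10 genes were fixed by name. They and the lists of related genes below were chosen with earlier results of these data known. Each of the 10 genes was read from the probe sets whose platform annotation gives its symbol alone, 29 probe sets of the 44988 that carry 1 gene symbol. All 10 passed the filter on low signal and are among the 11715 genes tested, of 18132 genes on the array.

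All samples were HMEC-1, microvascular endothelial cells of human origin that a viral large T antigen immortalised, grown without serum. In 3 samples the cells received EPC-Exos at 1e+11 particles per mL, and in the other 3 PBS of equal volume, each for 24 hours. The labels leave EPC-Exos unexplained; from the study they are known as exosomes, vesicles that cells secrete, made by human endothelial progenitor cells. RNA was hybridised to Affymetrix arrays, which give a log2 signal for each probe set. HMEC-1 is a single line, so all 6 arrays share its T antigen, which binds the RB family and p53. Nothing in the labels says that replicates came from separate cultures, and the spread that the p-values rest on may therefore be technical.

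In G1, mitogens raise the D cyclins, which bind CDK4 and CDK6. These kinases phosphorylate RB and loosen its hold on E2F transcription factors, and E2F then drives the E cyclins and the genes of DNA synthesis. Cyclin E with CDK2 completes the phosphorylation of RB. The Kip proteins p27 and p57 bind and block cyclin E with CDK2, while p27 also associates with cyclin D complexes. Resting endothelium holds p27 high, and growth factors that start vessel sprouting raise cyclin D1.

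With EPC-Exos the RNA of CCND1, CDK4 and CDK6 was higher and that of CCNE2, CDKN1B and CDKN1C was lower. The largest changes were a 2.31-fold fall of CDKN1C and a 1.75-fold rise of CDK6. CCND2, CCND3, CCNE1 and CDK2 did not pass the test. Of the 10 genes, 6 were therefore called, at an adjusted p under 0.05 in limma's fit over all genes, where 49.1% of all tested genes were called. By direction, 3 were higher, where 21.7% of all genes were, and 3 were lower, where 27.3% were. The arrays of the groups did not overlap in 7 of the 10 genes, against 55.7% of all genes, so neither share is far from the background. The series' own threshold, a change of 1.5-fold or more whose unadjusted p is below 0.05, took in 3 of the 10, CDK6, CDKN1B and CDKN1C, where it took in 9.89% of all genes. The median size of change, without its sign, was 0.30 log2 over the 10 genes and 0.18 over all tested genes.

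**Figure D1:**
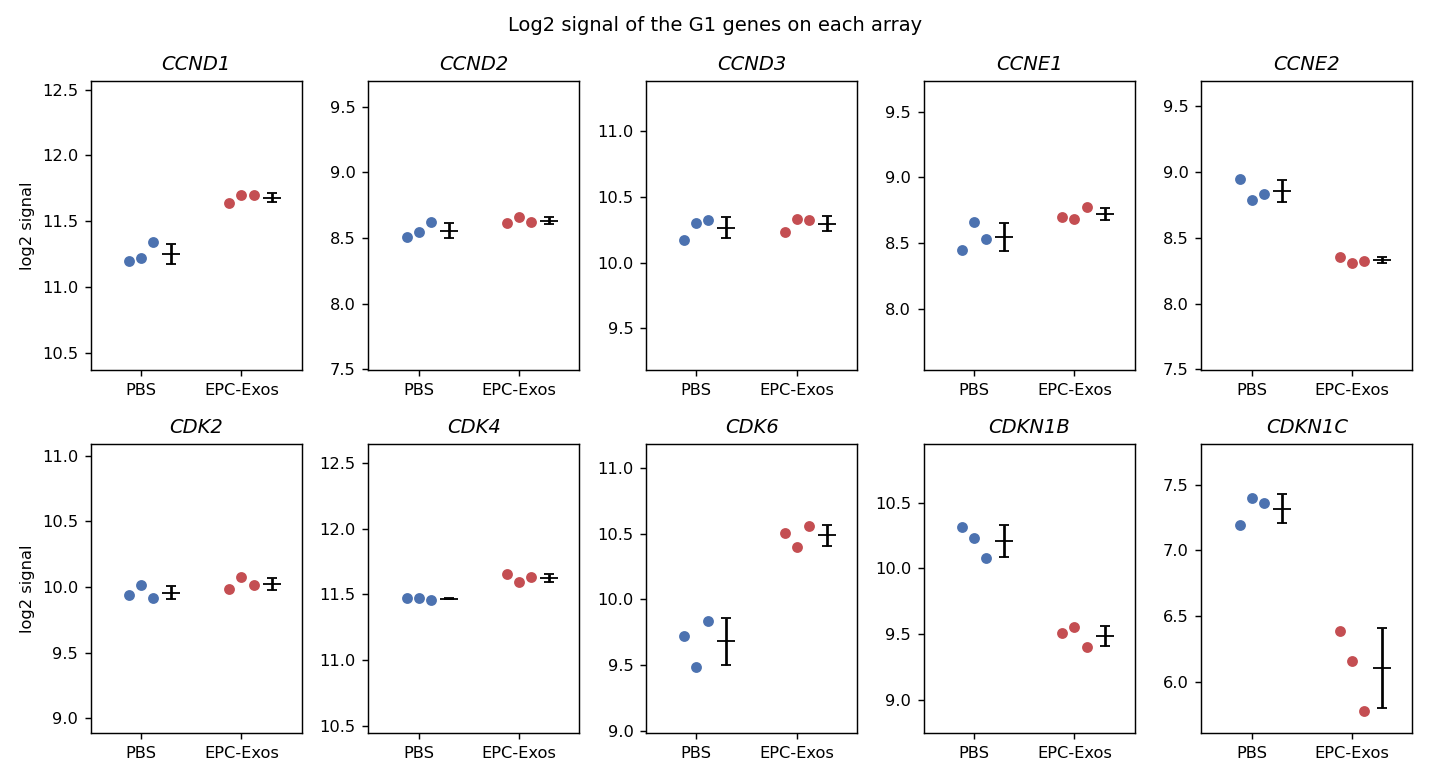
Log2 signal of the 10 genes on each array, from the probe set that stands for the gene. Each panel spans the same 2.2 log2 units; blue points are the 3 PBS arrays, red points the 3 EPC-Exos arrays, and the bar beside them is the mean with its SD. The groups stand clear of each other in CCND1, CCNE1, CCNE2, CDK4, CDK6, CDKN1B and CDKN1C, and overlap in CCND2, CCND3 and CDK2.

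Promoter windows from RefSeq (GRCh38.p14) were at hand for 5 of the 10 genes, CCND3, CCNE1, CDK4, CDK6 and CDKN1B. Those of CDK4, CDK6 and CDKN1B are shown because these are the called genes with a window, kinases that rose and an inhibitor that fell. Each is the 250 bases before the gene's start, 5′ to 3′ on the gene's strand: chr12:57752311-57752560 on the minus strand for CDK4, chr7:92836574-92836823 on the minus strand for CDK6, for its outermost start, and chr12:12717118-12717367 on the plus strand for CDKN1B. Capitals mark CACGTG, the E-box read by MYC with MAX, in CDK4, GGGCGG or its reverse complement, the GC box read by SP1, in CDK6, and CCAAT, the box read by NF-Y, in CDKN1B.
CDK4: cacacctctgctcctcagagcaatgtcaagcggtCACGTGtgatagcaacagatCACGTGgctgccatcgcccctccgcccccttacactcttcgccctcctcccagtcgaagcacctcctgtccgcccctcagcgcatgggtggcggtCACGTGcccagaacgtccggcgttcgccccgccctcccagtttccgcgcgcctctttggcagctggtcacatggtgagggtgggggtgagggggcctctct
CDK6: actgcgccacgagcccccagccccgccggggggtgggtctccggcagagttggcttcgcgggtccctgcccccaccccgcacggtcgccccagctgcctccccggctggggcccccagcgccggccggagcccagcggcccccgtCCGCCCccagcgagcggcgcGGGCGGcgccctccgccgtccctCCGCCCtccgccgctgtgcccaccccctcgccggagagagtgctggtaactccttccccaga
CDKN1B: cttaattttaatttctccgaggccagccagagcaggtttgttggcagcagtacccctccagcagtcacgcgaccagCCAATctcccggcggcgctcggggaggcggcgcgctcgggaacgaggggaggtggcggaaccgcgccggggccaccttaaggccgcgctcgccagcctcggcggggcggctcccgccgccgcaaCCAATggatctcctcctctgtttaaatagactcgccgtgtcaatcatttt

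The CDK4 window holds 3 E-boxes, which begin between 216 and 101 bases before the start. Of 35116 windows of this length, 6.34% hold at least 1. It also holds 3 GC boxes, between 175 and 73 bases. In CDK6 there are 3 GC boxes, between 105 and 62 bases before the start, a motif found in 42.6% of windows; the window of a second CDK6 start, not printed, holds none. In CDKN1B there are 2 CCAAT boxes, at 174 and 50 bases, a motif found in 32% of windows, and 1 GC box. The search covered both strands and also took in TGANTCA (AP-1), TTTNNCGC (E2F) and TGTTTAC (forkhead), which lie in 6.57%, 5.92% and 2.98% of windows and in none of the 3 printed here. No match in these windows overlapped a match of another motif. A match describes the letters of the window and was not tested as a site.

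Among the D cyclins, CCND1 was the gene that changed. Cyclin D1 is the partner of CDK4 and CDK6 that answers most directly to mitogens. Its log2 signal was 11.20, 11.22 and 11.34 on the PBS arrays and 11.64, 11.70 and 11.70 on the EPC-Exos arrays. All EPC-Exos arrays lay above all PBS arrays, and the change was 0.43 ± 0.045 log2 (SE, n = 3 per group; adjusted p = 7.96e-07, limma with Benjamini-Hochberg adjustment). The gene has 4 probe sets, and all 4 were called higher when each probe set was tested on its own, by 0.43 to 0.64 log2. The one with the largest change read 8.91, 8.95 and 9.11 on the PBS arrays and 9.65, 9.66 and 9.60 on the EPC-Exos arrays. On each of the 4 probe sets PBS replicate 3 was the highest PBS array and still lay below every EPC-Exos array. In that fit 28.4% of all 49293 probe sets were called.

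CCND2 encodes cyclin D2, a relative of D1 with the same kinase partners. Its log2 signal was 8.50, 8.54 and 8.62 with PBS and 8.61, 8.66 and 8.62 with EPC-Exos. The groups overlapped, and the difference of 0.076 log2 had a 95% interval from -0.064 to 0.22 (adjusted p = 0.37, limma). Its 2 other probe sets had group means between 4.47 and 5.20, near the background, for which the brightest of the array's 17 Tag control probe sets, with a mean of 4.97, served as a guide, since they detect no human RNA.

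For CCND3, cyclin D3, the log2 signal was 10.17, 10.30 and 10.32 with PBS and 10.23, 10.33 and 10.32 with EPC-Exos. The values interleaved, with a difference of 0.030 log2 and an interval from -0.088 to 0.15 (adjusted p = 0.69, limma). For CCND2 and CCND3 the upper ends of the intervals, 0.22 and 0.15 log2, lie below the lower end of the CCND1 interval, 0.33. The difference between the changes of these genes was not itself tested.

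The kinases that D cyclins activate were both higher. The log2 signal of CDK6 was 9.72, 9.48 and 9.84 on PBS arrays and 10.50, 10.40 and 10.56 on EPC-Exos arrays. The lowest EPC-Exos array stood above the highest PBS array, and the rise of 0.81 ± 0.076 log2 (adjusted p = 1.84e-07, limma) was the largest among the 10 genes. It ranked 229 among the rises of the 11715 tested genes. All 4 CDK6 probe sets were called higher, and their changes ran from 0.81 to 1.02 log2. The widest change was on the probe set of lowest signal, at 6.32, 6.22 and 6.68 with PBS and 7.46, 7.10 and 7.72 with EPC-Exos. On all 4, PBS replicate 2 and EPC-Exos replicate 2 were the lowest array of their group, and the spread within a group, at most 0.31 log2 (SD), was smaller than the change.

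CDK4 was measured more tightly and moved less. Its log2 signal was 11.47, 11.47 and 11.46 with PBS and 11.65, 11.59 and 11.63 with EPC-Exos. The groups did not overlap, and the rise was 0.16 ± 0.039 log2, or 1.12-fold (adjusted p = 0.00296, limma). All 4 of its probe sets were called higher, within a narrow range of 0.16 to 0.18 log2. The probe set with the weakest signal read 10.31, 10.41 and 10.33 with PBS and 10.57, 10.54 and 10.47 with EPC-Exos, again without overlap. The 95% intervals of the CDK4 and CDK6 changes, 0.075 to 0.24 and 0.65 to 0.97 log2, do not meet.

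CDK2, the partner of cyclin E, did not pass. Its log2 signal was 9.94, 10.02 and 9.92 with PBS and 9.98, 10.07 and 10.01 with EPC-Exos. The groups overlapped on all 3 of its probe sets but the differences were small, between -0.052 and 0.075 log2. For the probe set that stands for the gene, the interval was -0.050 to 0.18 log2 (adjusted p = 0.344, limma).

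Of the E cyclins, which activate CDK2, CCNE2 fell and CCNE1 did not pass. The CCNE2 arrays read 8.95, 8.79 and 8.83 (log2 signal) with PBS and 8.36, 8.31 and 8.33 with EPC-Exos. All EPC-Exos arrays were below all PBS arrays, and the change was -0.53 ± 0.068 log2, a 1.44-fold fall (adjusted p = 7.18e-06, limma). Its other probe set read 7.79, 7.55 and 7.71 with PBS and 7.15, 7.28 and 7.26 with EPC-Exos, fell by 0.46 log2 and was also called (adjusted p = 0.000587, limma over all probe sets).

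For CCNE1 the log2 signal was 8.44, 8.66 and 8.53 with PBS and 8.70, 8.68 and 8.77 with EPC-Exos. The EPC-Exos arrays were all higher, but PBS replicate 2 lay just under the lowest of them, and the difference of 0.17 ± 0.072 log2 missed the threshold (adjusted p = 0.0546, limma). This gene lies at the edge of the test: it was called under 6 of 18 other settings, and without PBS replicate 2 the difference was 0.23 log2 (adjusted p = 0.0162). Its other probe set, of lower signal, had a difference of -0.067 log2 and was not called.

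**Figure D2:**
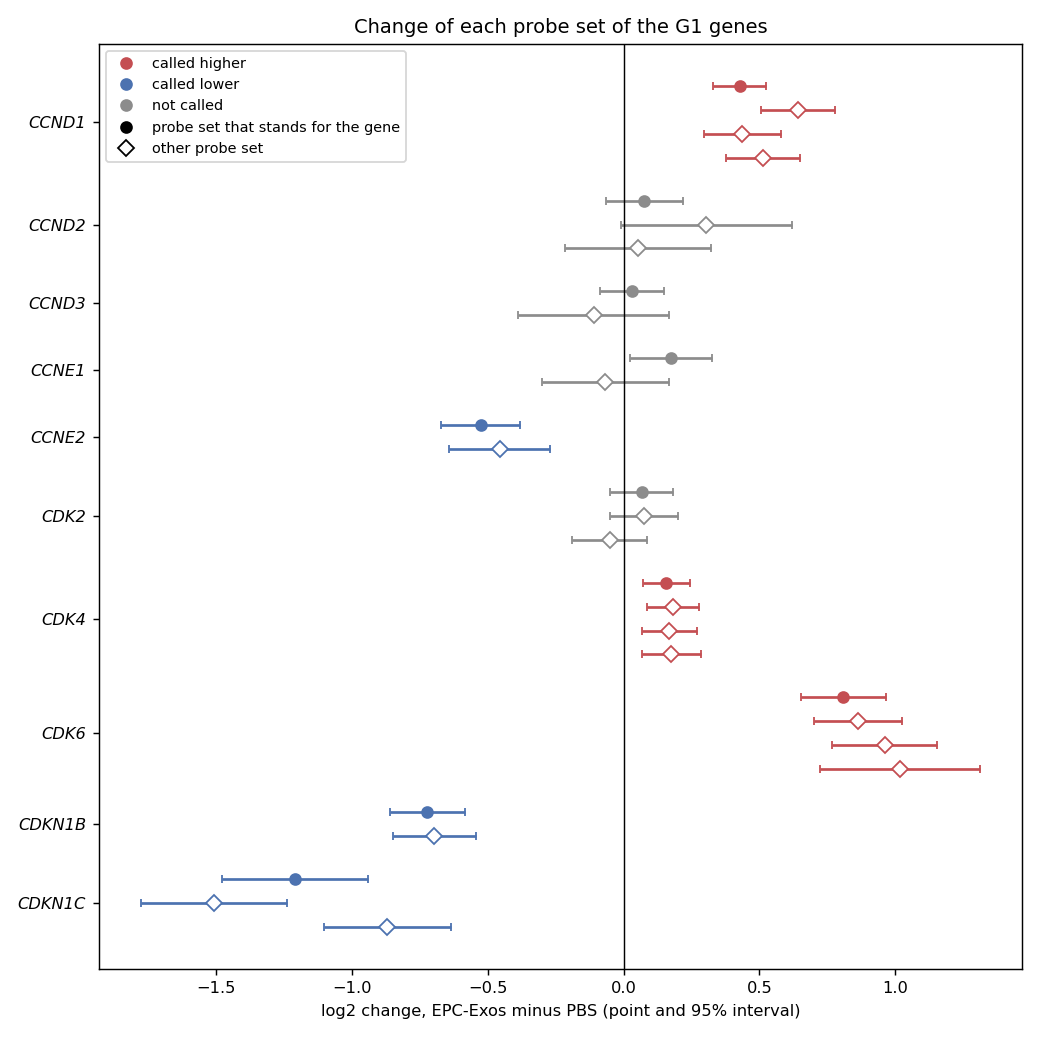
Log2 change of each of the 29 probe sets, EPC-Exos minus PBS, with its 95% interval from the fit over all probe sets. Filled circles are the probe sets that stand for the gene, open diamonds the others, red is called higher, blue called lower and grey not called. In all, 12 probe sets were called higher and 7 lower, where 28.4% of all 49293 probe sets were called in either direction. That share takes in probe sets near the background, since no filter was applied in this fit. Within each of CCND1, CCNE2, CDK4, CDK6, CDKN1B and CDKN1C every probe set was called in the same direction.

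Both Kip inhibitor genes fell. CDKN1B, whose product p27 holds cyclin E and CDK2 inactive in resting cells, had a log2 signal of 10.32, 10.23 and 10.08 on the PBS arrays. On the EPC-Exos arrays it was 9.51, 9.55 and 9.40. The groups were well apart, and the change was -0.72 ± 0.066 log2, a 1.65-fold fall (adjusted p = 1.45e-07, limma). The second probe set of the gene gave 8.84, 8.90 and 8.70 with PBS and 8.14, 8.13 and 8.08 with EPC-Exos, a change of -0.70 log2. The probe set that stands for the gene has an _s_at ending, which marks probes shared between transcripts, as do those of CCND2 and CCNE1, while the second CDKN1B probe set does not.

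CDKN1C encodes p57, a relative of p27 and an imprinted gene. Its log2 signal was 7.19, 7.40 and 7.36 with PBS and 6.38, 6.16 and 5.78 with EPC-Exos. Every EPC-Exos array was lower than every PBS array, though the EPC-Exos arrays spread more than in any other of the 10 genes (SD 0.31). The change was -1.21 ± 0.13 log2 (adjusted p = 6.07e-07, limma), which ranked 121 among the falls of all tested genes. The 3 probe sets of CDKN1C were all called lower, with changes from -1.51 to -0.87 log2; the one with the largest fall read 6.87, 7.07 and 7.07 with PBS and 5.60, 5.70 and 5.19 with EPC-Exos and has an _x_at ending, which marks probes that can bind related transcripts. The third read 6.21, 6.26 and 6.33 with PBS and 5.28, 5.54 and 5.37 with EPC-Exos. With EPC-Exos their means, from 5.40 to 6.11, stood not far above the highest Tag control, and with an offset of 64 added to the signals on the linear scale the change was -0.74 log2, still called.

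**Figure D3:**
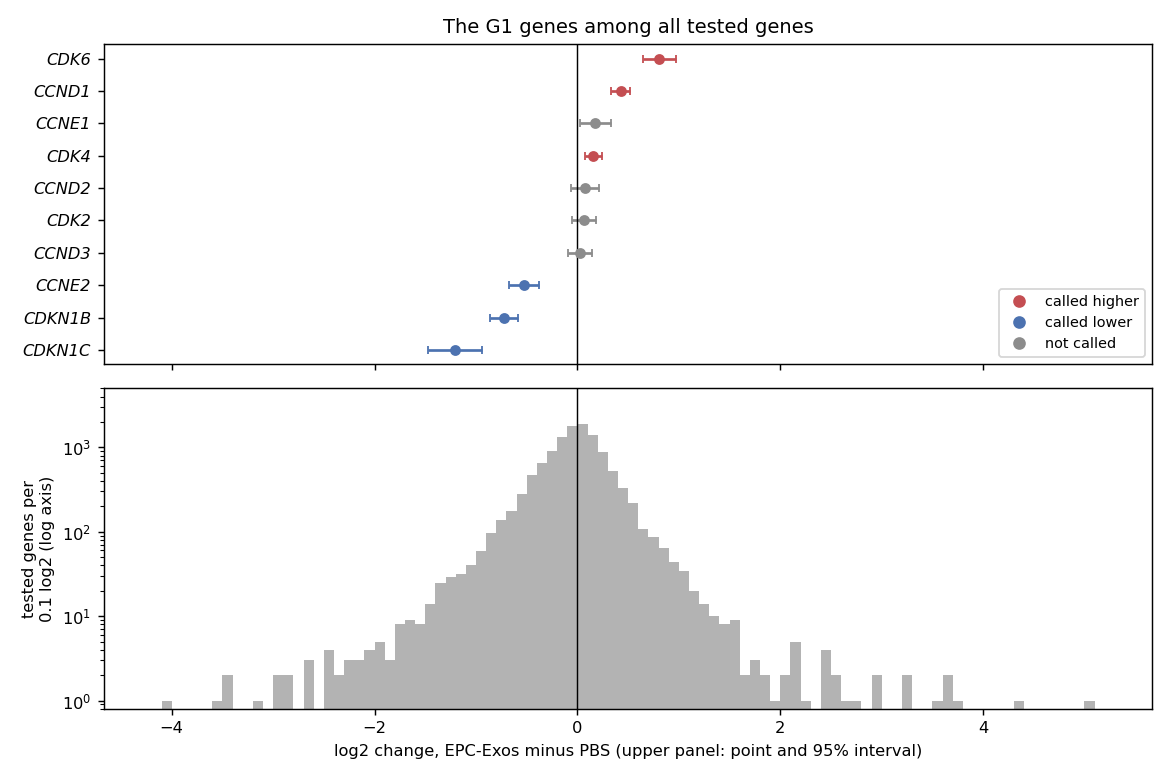
The upper panel gives the log2 change of each of the 10 genes with its 95% interval, and the lower panel the number of the 11715 tested genes in each 0.1 log2 step of change, on a log axis. CDK6 at 0.81 and CDKN1C at -1.21 lie on the flanks of the distribution, while CCND2, CCND3, CDK2, CDK4 and CCNE1 lie near its centre.

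The profiles most like that of CDK6 over the 6 arrays, by the root mean square difference of the deviations from the PBS mean, belonged to DDX60L (0.029 log2), RND3 (0.050 log2) and DNAJC2 (0.054 log2). Those most like CDKN1C belonged to IP6K3 (0.081 log2), SATB1 (0.11 log2) and PAPPA (0.11 log2). With groups that part clearly, this measure mostly reads the size of the group difference.

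All 4 tested genes among the remaining inhibitors of the G1 kinases were called lower, where 27.3% of all genes were, with a median change of -0.92 log2, against -0.011 over all tested genes. With the filter at the 60th percentile 3 were tested and their median was -0.44 log2. CDKN2C has no probe set of its own symbol alone. CDKN2B, which encodes p15, an INK4 protein that blocks CDK4 and CDK6, had a log2 signal of 8.22, 7.86 and 7.79 on the PBS arrays and 5.11, 5.65 and 5.65 on the EPC-Exos arrays. This 5.62-fold fall (-2.49 ± 0.14 log2, adjusted p = 3.68e-10, limma) ranked 13 among the falls of all tested genes. The EPC-Exos arrays lay near the Tag level of 4.97, and with an offset of 64 added to the signals on the linear scale the change was -1.53 log2, still called. CDKN1A, which encodes p21, the remaining member of the Kip family, fell by 1.40 ± 0.053 log2. CDKN2D, which encodes the INK4 protein p19, fell by 0.44 ± 0.074 log2. CDKN2A, which encodes p16 and ARF, fell by 0.26 ± 0.042 log2, and by 0.47 log2 with the mean of its probe sets; its values were known when it was chosen for naming.

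Of 13 tested genes of the pocket proteins, which the G1 kinases act on, and the E2F and DP factors, 2 were called higher, 3 lower and 8 not. Both shares lie below those of all genes, 21.7% higher and 27.3% lower, and the median was -0.098 log2. Of the 2 higher calls, that of E2F5 was kept under 12 of 17 other settings. RBL2, the pocket protein p130 of resting cells, fell by 0.54 ± 0.065 log2 (adjusted p = 3.09e-06, limma). E2F2, an activating E2F, fell by 0.54 ± 0.096 log2. E2F4, which acts mostly as a repressor with the pocket proteins, rose by 0.50 ± 0.065 log2. RB1 itself, named after its values were seen, had an interval from -0.41 to -0.0022 log2 and was not called (adjusted p = 0.0887, limma).

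Genes that E2F controls for DNA synthesis were mostly lower. Of 18 tested, 13 were called lower, where 27.3% of all genes were, 2 higher, where 21.7% were, and 3 were not called. The median was -0.26 log2. The helicase genes MCM6 and MCM2 fell by 0.67 ± 0.052 and 0.41 ± 0.062 log2, and PCNA, the sliding clamp, fell by 0.47 ± 0.035 log2 (adjusted p = 2.18e-08, 3.52e-05 and 1.31e-08, limma). With the mean of its probe sets PCNA fell by 0.73 log2. The changes were small, and 1 of the 18, MCM6, reached a fold of 1.5. With each array centred on its median, without a variance trend, or without EPC-Exos replicate 3, 11 of the 18 were called lower. MCM4 kept its lower call under 12 of 18 other settings and RRM1 under 13 of 18. ORC1 kept its higher call under 12 of 17.

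Of 5 genes of the S, G2 and M cyclins and their kinase, 1 was called higher, 1 lower and 3 not, while 49.1% of all genes were called in either direction. CCNB2, a mitotic cyclin, fell by 0.31 ± 0.045 log2. CCNB1, its close relative, was called higher by 0.11 ± 0.038 log2, a call that 6 of 18 other settings did not make (adjusted p = 0.0225, and up to 0.116 under those settings, limma). The remaining 3, CCNA2, CCNF and CDK1, were not called.

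**Figure D4:**
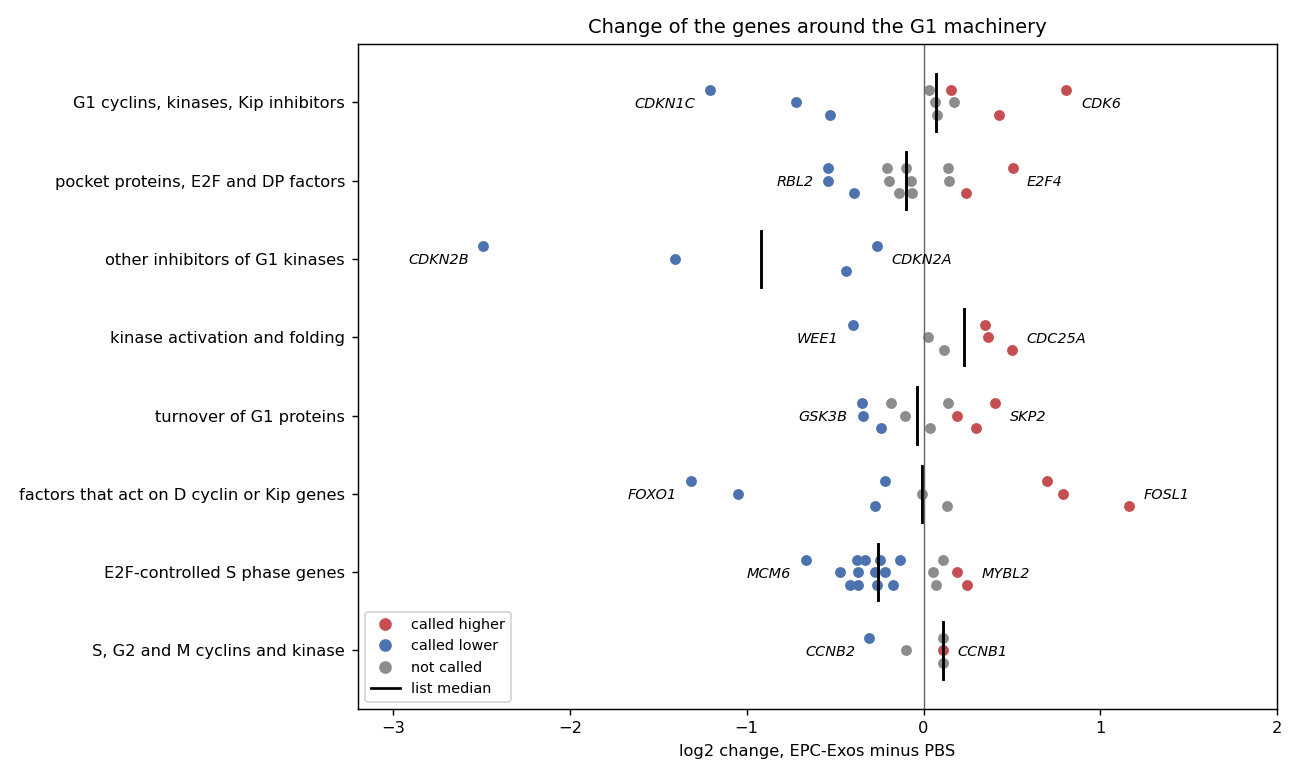
Log2 change of the 10 genes and of the tested genes in 7 lists around them, EPC-Exos minus PBS. Each point is a gene, red called higher, blue called lower and grey not called, the black bar is the list's median, and the genes at both ends are named. The other inhibitors lie wholly to the left of 0, from CDKN2B at -2.49 to CDKN2A at -0.26, and the E2F-controlled genes mostly to the left, from MCM6 at -0.67.

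Of 6 regulators of the kinases, 3 were called higher and 1 lower, against 21.7% and 27.3% of all genes. CDC25A, the phosphatase that activates CDK2, rose by 0.50 ± 0.067 log2. CDC37, the co-chaperone that folds CDK4, rose by 0.36 ± 0.055 log2 on a probe set of the shared _x_at kind. WEE1, a kinase that holds CDK1 and CDK2 inactive, fell by 0.40 ± 0.058 log2 (adjusted p = 1.01e-05, 3.5e-05 and 2.31e-05, limma). CDC25A and WEE1 were read from probe sets with the shared _s_at ending. Among the genes that the other lists gave for naming, CDKN1A, E2F2, GSK3B and FOSL1 also had the _s_at ending, and MCM2 the _x_at ending.

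Among 10 genes that act in the turnover of G1 proteins, 3 were called higher, 3 lower and 4 not, near the 21.7% and 27.3% of all genes, with a median of -0.035 log2. The higher call of FZR1 was kept under 13 of 17 other settings. SKP2, the ubiquitin ligase subunit that marks p27 for destruction, rose by 0.40 ± 0.080 log2, from 7.71, 7.55 and 7.80 to 8.08, 8.09 and 8.10. GSK3B, a kinase that marks cyclin D1 for export and destruction, fell by 0.35 ± 0.057 log2. RNF123, a ligase subunit that acts on p27 in the cytoplasm, fell by 0.34 ± 0.090 log2 (adjusted p = 0.000457, 7.35e-05 and 0.00457, limma). With the mean of their probe sets the changes of SKP2 and GSK3B were smaller, 0.21 and -0.14 log2, and still called (adjusted p = 0.021 and 0.0406, limma). These are RNA levels, and the amounts of p27 and cyclin D1 protein were not measured here.

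Of 9 transcription factors known to act on the D cyclin or Kip genes, 3 were called higher and 4 lower, against 21.7% and 27.3% of all genes, and the median size of change without its sign was 0.70 log2. FOSL1, a subunit of AP-1, rose by 1.16 ± 0.066 log2. FOXO1, a forkhead factor that drives CDKN1B, fell by 1.31 ± 0.090 log2, and KLF4, a zinc finger factor that raises p21, fell by 1.05 ± 0.058 log2 (adjusted p = 4.43e-10, 4.27e-09 and 3.51e-10, limma). With the mean of its probe sets FOXO1 fell by 0.81 log2. Named after their values were seen, JUN and MYC rose 1.73-fold and 1.62-fold, FOXO3 and FOXO4 fell 1.17-fold and 1.21-fold, and CREB1 and CTNNB1 were not called. The call of FOXO4 was lost with the mean of its probe sets (-0.16 log2, adjusted p = 0.12, limma) and without EPC-Exos replicate 3.

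Markers were read beside these results. Of 12 endothelial markers, CDH5, TEK, EMCN and CLDN5 did not exceed the Tag level of 4.97 in either group. PECAM1 had means of 5.18 and 5.23. With PBS the means of ERG, KDR, VWF and NOS3 were 5.42, 5.84, 6.03 and 6.16. The labelled cell type is therefore only partly borne out by this array. In the fit without the filter 32.3% of all 18132 genes were called, 2605 higher and 3260 lower. Of the 12 endothelial markers 3 were called higher in that fit and 0 lower. ENG rose from a mean of 9.16 to 9.96 log2, FLI1 from 7.15 to 7.95 and TIE1 from 7.36 to 7.85. The mean log2 signal over this list was 5.58 to 5.73 on the PBS arrays and 5.87 to 5.98 on the EPC-Exos arrays. Over 8 fibroblast and mural markers it was 6.70 to 6.80 with PBS and 5.65 to 5.86 with EPC-Exos. In the fit without the filter 5 were called lower, COL1A1, PDGFRB, DCN, LUM and ACTA2. RGS5, at means of 5.02 with PBS and 5.12 with EPC-Exos, was not called. COL1A1 went from a mean of 11.07 to 10.40, DCN from 7.61 to 5.40 and LUM from 5.97 to 3.67. COL1A2 and PDGFRA lay below the Tag level. Over 6 epithelial markers the mean signal was 7.15 to 7.29 and 7.06 to 7.16, with CDH1 below the Tag level. The 2 called lower were KRT18, from a mean of 12.53 to 11.82, and KRT8, from 10.10 to 9.88. Over 6 leukocyte markers the mean signal was 5.02 to 5.09 and 5.19 to 5.32, with 1 called higher and PTPRC, CD14 and LYZ below the Tag level. The part of any other cell type in the changes of the G1 genes was not tested, and in RNA of whole cultures fewer cells in a phase and less RNA per cell cannot be told apart. The 3′ to 5′ difference of the GAPDH and ACTB control probe sets, a sign of RNA quality, differed between the groups by 0.0092 and 0.011 log2.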

How the data were processed

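RNA of 6 samples was measured, 3 with PBS and 3 with EPC-Exos, grouped by the sample titles. The deposited table holds 1 log2 signal for each of 49395 probe sets and each array; the log2 scale was read from the range of the values, 2.47 to 14.52. The submitters' processing notes name MAS5, without a role, and how the authors corrected background and scaled the arrays is not given in the sources used here. Array medians ran from 6.25 to 6.34, and no further scaling was applied. Arrays within a group correlated at 0.997, arrays of different groups at 0.988 to 0.989, and no pair shared more than 24 identical values. No detection calls were used. The number of arrays limits the precision, as does signal near the background.

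A gene stood as its probe set of highest mean signal and was tested where this reached 5.45, the 40th percentile over non-control probe sets. limma 3.58.1 in R 4.3.3 (lmFit, eBayes with a variance trend, group as the only term) was run over all 11715 genes and, separately, over all 49293 non-control probe sets unfiltered, with Benjamini-Hochberg adjustment, two-sided, called under 0.05. Changes are EPC-Exos minus PBS with limma's moderated SE; n is 3 arrays per group. Signal is not comparable between probe sets, so levels were not ordered between genes. The fit was also run on simulated data with independent noise and far fewer changed genes than were called here. That run cannot vouch for the calls in these data.

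The members and lists were chosen with earlier results of these data known. Each list gave for naming its 3 called genes of largest change, or fewer where fewer were called; for the called member that rose most and the one that fell most, the 3 closest profiles were named. The labels give no batch, and treatment cannot be told apart from any batch that follows it. Alternatives were other scalings, offsets, filters, probe set rules, variance models, the replicate block, leaving out each array and the series' threshold. Same-numbered samples had deviations that correlated at 0.20, 0.18 and 0.077, above the other pairings, at -0.19 to 0.022. The labels do not say that the numbers pair the samples. The main fit therefore left them unpaired, and the replicate block served as an alternative.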

Additional observations from a re-analysis of the deposited data

How the results depend on the processing

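The 6 called genes, CCND1, CCNE2, CDK4, CDK6, CDKN1B and CDKN1C, kept their direction and their call under every alternative that kept the rule of an adjusted p, 18 each and 17 for CDKN1C, which fell below the filter at the 60th percentile. Their log2 changes ran from 0.40 to 0.50 for CCND1, -0.56 to -0.45 for CCNE2, 0.14 to 0.18 for CDK4, 0.71 to 0.91 for CDK6, -0.79 to -0.67 for CDKN1B and -1.35 to -0.74 for CDKN1C. CCNE1 was called with quantile normalization, cyclic loess, median centring, the filter at the 60th percentile, the replicate block and without PBS replicate 2, and turned to -0.067 without _x_at and _s_at probe sets. CCND3, never called, turned to -0.040 with the mean of its probe sets and to -0.016 without PBS replicate 1. With 1 array left out its range was -0.016 to 0.062. The mean of its probe sets takes in a change of -0.11 log2 on the minor one. That probe set had means of 3.92 with PBS and 3.81 with EPC-Exos, below the Tag level. On the main probe set PBS replicate 1 was the lowest PBS array, at 10.17 against 10.30 and 10.32. Why these readings were low was not tested. CCND2 and CDK2 were not called under any alternative. Under the series' threshold of fold and unadjusted p the calls numbered 1159 over all tested genes and 3 among the 10, leaving out CCND1 (1.34-fold), CCNE2 (1.44-fold) and CDK4 (1.12-fold). Leaving out 1 array at a time gave 4959 to 5671 calls over all genes, 6 to 7 among the 10 genes and 17 to 19 among their 29 probe sets. The share of all probe sets called was counted in the main fit alone, at 28.4%. Without the variance trend 15 of the 29 probe sets were called, 8 higher and 7 lower, against 12 and 7 in the main fit. Which probe sets lost their higher call was not followed. Among the 6 called genes CDK4 had the highest adjusted p in that setting, at 0.0344 (limma). With the replicate block, 6118 genes, 7 of the 10 genes and 19 of their 29 probe sets were called; every array's deviations correlated best with those of its own number, a hint from the data and not the design. Signal near the Tag level limits CDKN1C and the minor CCND2, CCND3 and CCNE1 probe sets.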
